A study of Mus musculus with 14 samples.

Results

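The collagen gene family was followed in liver tumours of mice. Its members were taken by symbol, as every row of the count table named Col, a number, a and a number. The table held 44 such rows among 77981 genes. Of these, 32 had 50 or more counts summed over the 14 libraries and were tested within the 16440 genes that passed the same minimum. The tested collagens were 10 of 11 chains of the fibrillar types, 3 of 6 type IV chains, which build basement membranes, and 19 of 27 chains of the other types.

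The libraries came from 5 CDK18KO tumours, which lack Cdk18, 4 DKO tumours, which lack both Cdk16 and Cdk18, and 5 wild-type (WT) tumours. Both genes encode kinases of the PCTAIRE family. Per the labels' protocols, all groups carried tumours raised by delivering plasmids that encode c-Myc and β-catenin of the mouse to the liver by hydrodynamic injection, a large and fast injection into the bloodstream. Tumours were taken at 15 mm, at signs of distress or at 8 weeks. Cdk16 was deleted in formed tumours of Cdk16 fl/fl animals with Cre-ERT2, a Cre recombinase that tamoxifen switches on, by 75 mg/kg tamoxifen on 5 days, with tissue taken 10 days later. Controls with CRE-ERT2 alone received tamoxifen too. The sources used here do not give which animals received tamoxifen, the promoter that drives Cre-ERT2, or the age, strain and sex, so loss of Cdk16 cannot be told apart from an effect of Cre or tamoxifen in DKO tumours. Animals were drawn at random within each genotype, per the series' design text, and the libraries are its biological replicates.

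Collagens are matrix proteins in which 3 chains wind into a rope-like helix. Fibrillar collagens pack into tension-bearing fibrils, type IV collagen forms the sheet-like network of basement membranes, and other types sit on fibrils, anchor membranes or span the cell surface. In liver, hepatic stellate cells and portal fibroblasts are the main source of fibrillar collagen, and its build-up is the hallmark of fibrosis.

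Total counts ran from 2197414 to 3303291 in CDK18KO, 2023596 to 3324298 in DKO and 1442417 to 6068209 in WT libraries. Collagens made up 0.131%, 0.0496%, 0.0383%, 0.0227% and 0.0339% of all counts in CDK18KO 1 to 5, 0.173%, 0.07100%, 0.105% and 0.0636% in DKO 1 to 4 and 0.135%, 0.129%, 0.102%, 0.132% and 0.153% in WT 1 to 5. Levels are in CPM, the counts brought to a common library total, of reads from the 3′ ends of transcripts. Levels, and the shares and sums over chains, were read for differences between libraries and not between genes. Cdk18 stood at 0.930 to 3.40 CPM in CDK18KO, 0.558 to 3.99 CPM in DKO and 1.24 to 10.5 CPM in WT libraries, and Cdk16 at 31.2 to 66.3, 17.6 to 48.1 and 39.3 to 59.6 CPM in the same order, with overlap between groups in each case. The sources used here do not place the counted 3′ ends inside or outside the deletions, so these levels check no label. Y-linked genes summed to 350.1 CPM in CDK18KO 1, 769 CPM in WT 5 and 206 CPM in WT 3, against at most 32.7 CPM in the other libraries and at most 2.75 CPM in DKO libraries. Y-linked expression was therefore not balanced between groups. The sex of the animals is not given, so whether sex was balanced is not known. The hepatocyte gene Alb was present in every library, at 56.8 to 1236 CPM in CDK18KO, 574 to 3397 CPM in DKO and 31.3 to 1113 CPM in WT.

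Collagen RNA was lower in CDK18KO than in WT tumours for most chains, although no chain passed the adjusted test. Of the 32 tested collagens, 28 had a log2 fold change below 0 in CDK18KO against WT, where 51.8% of all tested genes did. The median was -1.62 over the collagens and -0.03 over all genes tested. The extremes were -4.86 for Col2a1 and 1.51 for Col18a1. No collagen was called by edgeR at an adjusted p under 0.05, where the share called among all genes was 0.00608%, which is 1 gene. At an unadjusted p under 0.05, 15 collagens were lower, against 6.13% of all genes, and 1 was higher, against 10.8%. Of those 15, Col2a1, Col7a1, Col8a2, Col9a2 and Col10a1 had fewer than 50 counts outside WT and passed the minimum only with the WT counts, so being lower was built into their entry. Among the 25 collagens that reach the minimum without the libraries of any 1 group, 21 had a log2 fold change below 0 and 10 were lower at that p, against 4.54% of the 14021 genes that do, with medians of -1.38 over these collagens and -0.01 over these genes. DESeq2 called 7 collagens, all lower, with 1.92% of all genes called lower and 3.72% called higher. Those 7 were Col6a3 (adjusted p = 0.000685), Col12a1 (0.00308), Col6a2 (0.00714), Col11a1 (0.0116), Col5a2 (0.0333), which pass that narrower minimum, and Col7a1 (0.0122) and Col8a2 (0.0232), which do not. Without CDK18KO 1, the median over the collagens was -2.38, 22 collagens were lower at an unadjusted p under 0.05, and edgeR called Col6a3 alone among them at -3.25 (adjusted p = 0.0407). In bulk tumour tissue, fewer collagen-producing cells and less collagen RNA per cell cannot be told apart.

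In DKO tumours the family stood nearer to WT. Of the 32 tested collagens, 23 had a log2 fold change below 0 in DKO against WT, beside 52.2% of all genes, with a median of -0.72 over the collagens and -0.04 over all genes. edgeR called 0 collagens and 0.00608% of all genes. At an unadjusted p under 0.05, 7 collagens were lower, against 5.26% of all genes, and 1 was higher, against 13.1%. Of the 7, Col2a1, Col7a1, Col8a2 and Col9a2 passed the minimum only with the WT counts. Among the 25 collagens that reach it without any 1 group, 3 were lower (Col6a3, Col11a1 and Col26a1), against 5.48% of such genes, with a median of -0.54. DESeq2 called Col6a3 lower (adjusted p = 0.0486), where 1.03% of all genes were called lower, and Col18a1 higher (adjusted p = 0.0449), where 5.55% were. The 7 lower collagens became 3 without DKO 2, and 4 without DKO 4 or without WT 4, and the median became -0.45 without WT 2 and -0.44 without WT 4. With Y-linked expression as a covariate the median was -0.02, and without the 3 libraries of high Y-linked expression it was -0.60. The part of the imbalance in Y-linked expression in the lower family median of DKO was not tested. CDK18KO and DKO were both set against the same 5 WT libraries, so values of these comparisons are not independent of each other.

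Set directly against CDK18KO, DKO tumours had a log2 fold change above 0 for 25 of the 32 collagens, beside 49.1% of all genes, and the median was 0.78 over the collagens and -0.01 over all genes. edgeR called 0 collagens and 0 of all genes (0%), and DESeq2 called 0 collagens and 0.736% of all genes. At an unadjusted p under 0.05, 5 collagens were higher in DKO and 0 lower, beside 5.07% and 1.9% of all genes. These were Col1a1, Col12a1, Col4a5, Col6a2 and Col27a1, of which Col4a5 passed the minimum only with the DKO counts. Over the 25 collagens that reach it without any 1 group, 4 were higher, against 3.67% of such genes, with a median of 0.57. Without CDK18KO 1 the median was 1.80 and 12 collagens were higher at that p, and without CDK18KO 3 the number was 8. The difference between the knockout groups was therefore larger when CDK18KO 1 was set aside, and it passed the adjusted test for no collagen either way.

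**Figure D1:**
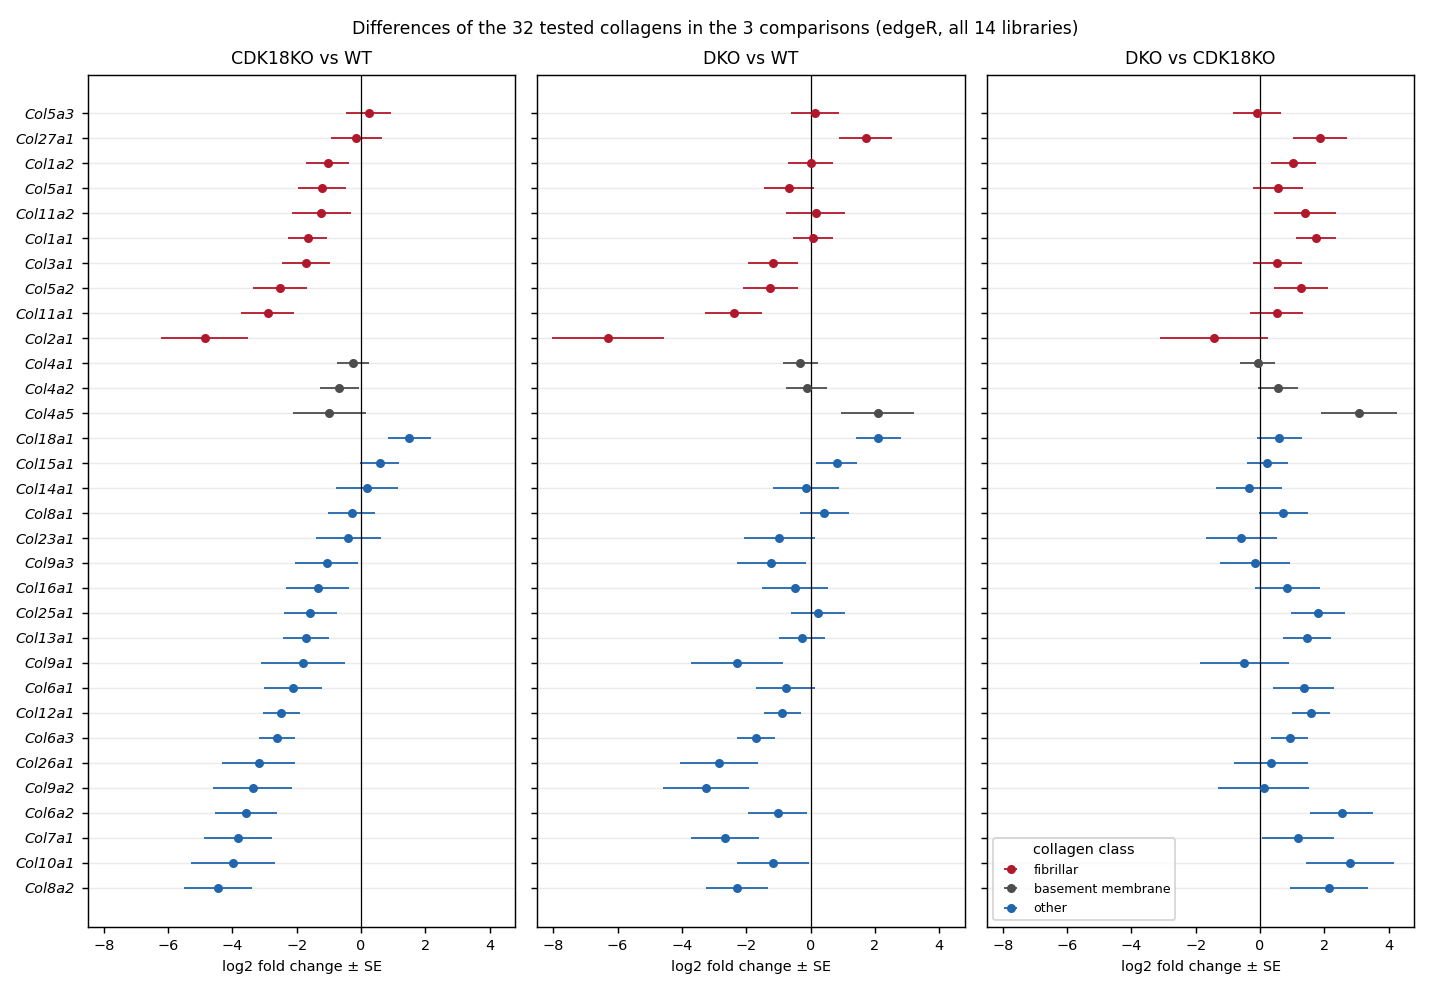
Log2 fold changes (x axis) with SE bars of the 32 tested collagens (rows, grouped by class) for CDK18KO against WT, DKO against WT and DKO against CDK18KO. In the left panel 28 of 32 points lie below 0 and Col18a1 lies highest at 1.51, and in the right panel 25 of 32 lie above 0.

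The libraries within a group differed widely. CDK18KO 1 to 5 had 7, 21, 17, 24 and 26 of the 32 tested collagens below the lowest WT library. Over all genes tested, 12.9%, 31.9%, 13.4%, 30.1% and 26.5% lay below the lowest WT library in the same CDK18KO libraries. DKO 1 to 4 had 5, 16, 5 and 15 of the 32 collagens below the lowest WT library, beside 26.4%, 28.8%, 11.2% and 26.3% of all genes. By these counts CDK18KO 1 lay nearest to WT within its group, although its 7 of 32 are a larger share than the 12.9% of all genes. It had 4 of 32 collagens above the highest WT library, beside 14.6% of all genes. CDK18KO 1 had 16 of 32 above the WT median, while CDK18KO 4 and 5 had 2 each, and the share of all genes was not counted there. CDK18KO 1 is also the library of its group with high Y-linked expression, and without all 3 such libraries the collagen median was -2.26 for CDK18KO against WT, -0.60 for DKO against WT and 1.73 for DKO against CDK18KO.

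**Figure D2:**
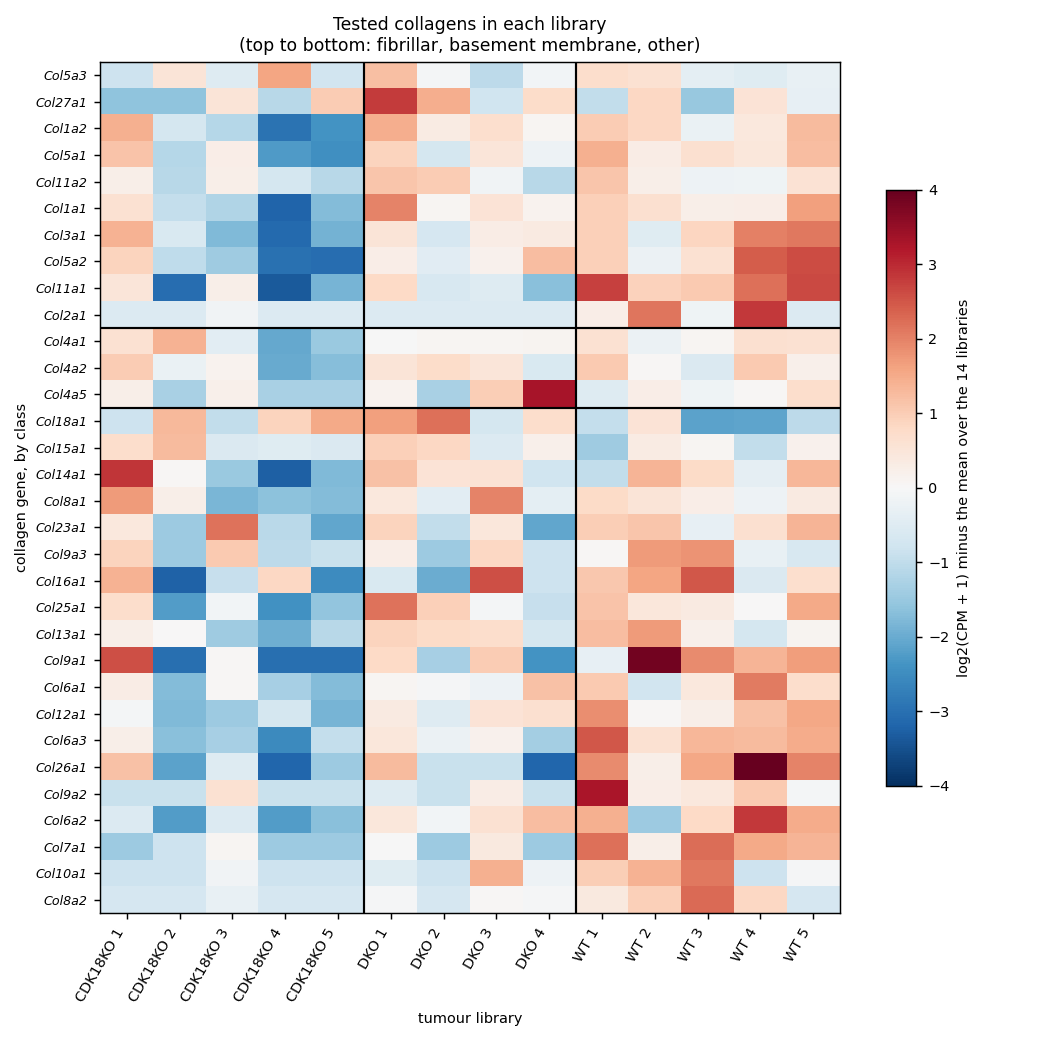
Level of each tested collagen (rows, by class) in each of the 14 libraries (columns), as log2(CPM + 1) minus the gene's mean over the libraries, with the colour scale ending at 4 on either side of 0. CDK18KO 4 and 5 are blue over most rows, CDK18KO 1 is not, and Col18a1 is red in most knockout libraries and blue in WT 3 and WT 4.

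Of the fibrillar collagens of scar matrix, the type I chains Col1a1 and Col1a2 and the type III chain Col3a1 lay below every WT library in CDK18KO 2 to 5. Col1a1 and Col1a2 encode the chains of type I collagen, the main fibril protein of most tissues. Col1a1 (11:94936224-94953042, plus strand, GRCm38) stood at 235, 79.6, 66.7, 15.9 and 46.1 CPM in CDK18KO 1 to 5, 613, 166, 227 and 172 CPM in DKO 1 to 4 and 300.1, 245, 182, 187 and 491 CPM in WT 1 to 5. Libraries CDK18KO 2 to 5 lay below every WT library, while CDK18KO 1 lay among them and DKO 1 was highest of all 14. The log2 fold change was -1.66 (SE 0.60, adjusted p = 0.189) for CDK18KO against WT, 0.07 (SE 0.61, adjusted p = 0.961) for DKO against WT and 1.73 (SE 0.62, adjusted p = 0.494) for DKO against CDK18KO, and it was -0.57 for DKO against WT without DKO 1. None passed the adjusted test.

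Col1a2 stood at 311, 69.6, 51.9, 13.9 and 20.9 CPM in CDK18KO 1 to 5, 319, 145, 183 and 121 CPM in DKO 1 to 4 and 232, 203, 95.1, 153 and 278 CPM in WT 1 to 5. CDK18KO 1 stood beside DKO 1 above all other libraries, and CDK18KO 2 to 5 lay below the lowest WT library. For CDK18KO against WT its log2 fold change was -1.04 (SE 0.67, adjusted p = 0.454), and -2.31 without CDK18KO 1. Between DKO and WT the Col1a2 fold change was close to 0, with an SE of 0.70, and it took either sign when single libraries were left out, from -0.36 without DKO 1 to 0.17 without WT 5. The share of Col1a1 in the summed counts of the type I chains was 54.9 ± 9.22% in CDK18KO (SD, n = 5), 58.3 ± 5.43% in DKO (n = 4) and 59.1 ± 5.24% in WT (n = 5), and these means differed by less than the SD of CDK18KO. CDK18KO 1 had the lowest share of the 14 libraries, at 43.01% (exact 95% counting interval 40.7 to 45.4%).

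Col3a1, the chain of type III collagen, which mixes with type I in pliable fibrils, stood at 126, 30.6, 13.3, 4.64 and 12.1 CPM in CDK18KO 1 to 5, 68.1, 29.02, 58.6 and 60.95 CPM in DKO 1 to 4 and 92.7, 33.9, 86.3, 194 and 208 CPM in WT 1 to 5. CDK18KO 2 to 5 lay below every WT library and CDK18KO 1 among them, while the DKO libraries lay below 4 of the 5 WT libraries. Its log2 fold change was -1.71 (SE 0.74, adjusted p = 0.258) for CDK18KO against WT, or -3.03 without CDK18KO 1, and -1.18 (SE 0.78, adjusted p = 0.439) for DKO against WT. Col5a2, a chain of the type V collagen that starts fibrils, lies tail to tail with Col3a1 on chromosome 1, 24614 bases apart, and stood at 28.2, 6.86, 4.94, 0.994 and 0.9305 CPM in CDK18KO 1 to 5, 18.2, 10.6, 16.98 and 36.2 CPM in DKO 1 to 4 and 29.4, 12.6, 23.2, 84.9 and 95.6 CPM in WT 1 to 5. WT 4 and WT 5 were the highest libraries for both Col3a1 and Col5a2, and CDK18KO 4 and 5 were the lowest for Col5a2. The Col5a2 log2 fold change was -2.52 (SE 0.83, adjusted p = 0.166) for CDK18KO against WT and -1.25 (SE 0.85, adjusted p = 0.453) for DKO against WT. Col5a1, its partner chain, had 5.799 ± 6.88 CPM in CDK18KO, 8.54 ± 4.47 CPM in DKO and 13.8 ± 5.23 CPM in WT (SD), with log2 fold changes of -1.21 (SE 0.74, adjusted p = 0.423) and -0.66 (SE 0.78, adjusted p = 0.672) against WT. With Y-linked expression as a covariate the values for DKO against WT changed sign, to 0.44 for Col3a1, 0.24 for Col5a2 and 0.22 for Col5a1.

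**Figure D3:**
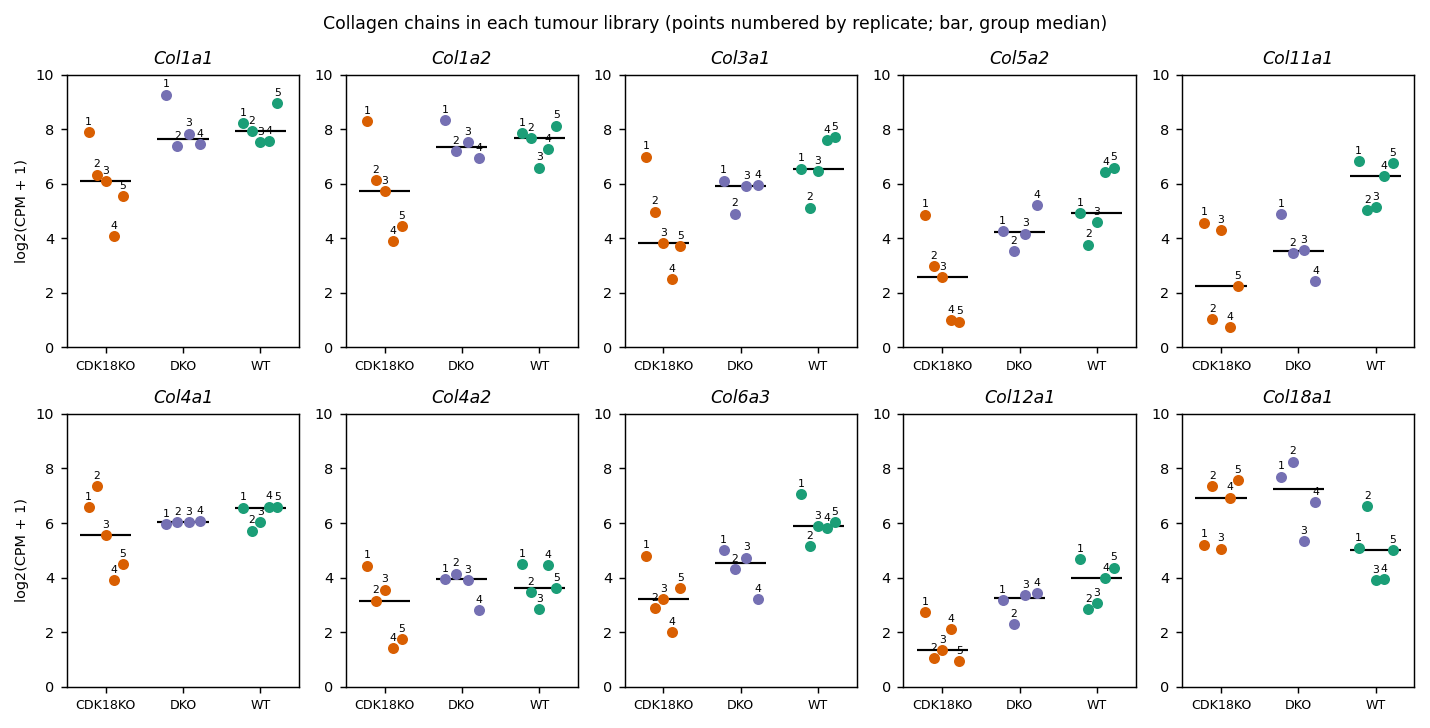
Levels of 10 collagen chains as log2(CPM + 1) (y axis) in each library, with points numbered by replicate and a bar at the group median. Col11a1 and Col6a3 show no overlap between either knockout group and WT, while CDK18KO 1 lies among the WT points for Col1a1 and Col3a1 and above them for Col1a2.

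Col11a1, a chain of type XI collagen best known from cartilage and from the fibroblasts of carcinomas, separated both knockout groups from WT. It stood at 22.8, 1.05, 18.8, 0.663 and 3.72 CPM in CDK18KO 1 to 5, 28.8, 10.05, 10.9 and 4.39 CPM in DKO 1 to 4 and 112, 31.4, 34.3, 76.8 and 106 CPM in WT 1 to 5. The highest CDK18KO library (22.8 CPM) and the highest DKO library (28.8 CPM) were both below the lowest WT library (31.4 CPM). In log2 fold change this was -2.90 (SE 0.83, adjusted p = 0.153) for CDK18KO against WT and -2.39 (SE 0.88, adjusted p = 0.175) for DKO against WT, with 0.51 for DKO against CDK18KO, or -0.17 without DKO 1. In CDK18KO, Col6a3, Col7a1, Col11a1 and Col12a1 had every CDK18KO library below every WT library, 4 of 32 collagens beside 1.77% of all genes, and none lay wholly above WT, beside 1.02%. Of these, Col7a1 had 21 counts outside WT and passed the minimum only with the WT counts, so being lower was built into its entry. Col6a3, Col11a1 and Col12a1 reach the minimum without any 1 group. In DKO, Col6a3 and Col11a1 lay wholly below WT, 2 of 32 beside 2.47% of all genes, and 0 lay wholly above, beside 2.95%.

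The remaining fibrillar chains were low or showed another order. Col2a1, the main collagen of cartilage, had 1 count in all CDK18KO libraries, 0 in all DKO libraries and 72 in WT, of which WT 2 held 39 and WT 4 held 30. The WT to CDK18KO ratio was 54.3 (exact 95% counting interval 9.43 to 2173), and Col2a1 was at least 13.7-fold lower in DKO, taking 3 counts in the whole DKO group as the floor. Its fitted fold change was below the collagen median in both comparisons, and so is that bound. How far below it lies does not move the medians above, but its place among the tested collagens counts in them. Over the collagens that reach the minimum without any 1 group, which leave out Col2a1, the medians were -1.38 for CDK18KO and -0.54 for DKO against WT. Of the 8 cartilage markers listed, 2 were tested, Sox5 and Sox6, and Acan was at 0 in 13 of 14 libraries, with 0.309 CPM in CDK18KO 3. Col27a1, a chain of thin cartilage fibrils, had 6.18 ± 6.06 CPM in CDK18KO, 22.3 ± 21.6 CPM in DKO and 6.703 ± 4.87 CPM in WT, with log2 fold changes of 1.71 (SE 0.83, adjusted p = 0.288) for DKO against WT, or 0.82 without DKO 1, and 1.86 (SE 0.84, adjusted p = 0.677) for DKO against CDK18KO, or 0.96 without DKO 1. For CDK18KO against WT it was -0.14, and between -0.78 and 0.26 with single libraries left out. Col5a3 and Col11a2 stayed at or below 10.9 CPM in every library, and Col24a1 had 43 counts in all and was not tested.

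Of the 3 tested type IV chains of basement membranes, Col4a1 and Col4a2 had log2 fold changes between -0.68 and 0.56 in the 3 comparisons, and Col4a5 had larger ones. Col4a1 (8:11198423-11312826, minus strand) and Col4a2 (8:11312805-11449287, plus strand) lie head to head, and their annotated ends overlap by 22 bases. Col4a1 stood at 94.5, 161, 45.7, 13.9 and 21.4 CPM in CDK18KO 1 to 5, 60.96, 64.2, 64.1 and 66.4 CPM in DKO 1 to 4 and 93.8, 51.9, 64.9, 96.03 and 94.1 CPM in WT 1 to 5. The 4 DKO libraries spanned 60.96 to 66.4 CPM, while CDK18KO ran from the lowest of all libraries to the highest. The log2 fold change of Col4a1 was -0.25 (SE 0.51, adjusted p = 0.836) for CDK18KO against WT, or 0.01 without CDK18KO 4, and -0.32 (SE 0.54, adjusted p = 0.771) for DKO against WT. Between DKO and CDK18KO it was -0.07, and 0.50 without CDK18KO 2.

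Col4a2 stood at 20.7, 7.91, 10.8, 1.66 and 2.33 CPM in CDK18KO 1 to 5, 14.5, 16.7, 14.1 and 6.04 CPM in DKO 1 to 4 and 21.3, 10.1, 6.16, 21.1 and 11.3 CPM in WT 1 to 5. Its log2 fold change was -0.68 (SE 0.60, adjusted p = 0.597) for CDK18KO against WT and -0.12 (SE 0.63, adjusted p = 0.935) for DKO against WT, and the second took either sign when single libraries were left out (-0.31 without WT 3, 0.08 without WT 4). Col4a1 made up 87.6 ± 6.02% of the summed counts of this pair in CDK18KO, 83.4 ± 5.601% in DKO and 85.6 ± 4.47% in WT (SD). CDK18KO 2, the library with the most Col4a1, had a share of 95.3%. Col4a5, X-linked and a partner in the type IV network of the kidney filter, stood at 23.1 CPM in DKO 4 and at most 3.84 CPM in the other 13 libraries. Its log2 fold change was 2.08 (SE 1.13, adjusted p = 0.336) for DKO against WT and 0.20 without DKO 4, and 3.06 (SE 1.18, adjusted p = 0.547) for DKO against CDK18KO and 1.19 without DKO 4. Col4a3 (6 counts), Col4a4 (45) and Col4a6 (7) were below the minimum.

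Type VI collagen forms beaded filaments between cells and fibrils, and its 3 tested chains had a median log2 fold change of -2.62 for CDK18KO against WT and -1.02 for DKO against WT. Col6a3 (1:90765923-90843971, minus strand) stood at 26.9, 6.33, 8.34, 2.98 and 11.2 CPM in CDK18KO 1 to 5, 31.3, 18.98, 25.6 and 8.24 CPM in DKO 1 to 4 and 131, 34.9, 58.4, 55.5 and 64.7 CPM in WT 1 to 5. No knockout library reached the lowest WT library at 34.9 CPM, and DKO 1 to 3 lay above CDK18KO 2 to 5. The log2 fold change was -2.62 (SE 0.56, adjusted p = 0.119) for CDK18KO against WT, the collagen with the smallest unadjusted p in that comparison. It was -1.70 (SE 0.58, adjusted p = 0.158) for DKO against WT and 0.92 (SE 0.56, adjusted p = 0.862) for DKO against CDK18KO.

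Col6a2 stood at 2.19, 0, 2.16, 0 and 0.465 CPM in CDK18KO 1 to 5, 5.41, 3.35, 6.09 and 9.88 CPM in DKO 1 to 4 and 11.4, 0.692, 7.04, 31.9 and 12.04 CPM in WT 1 to 5. Every DKO library was above every CDK18KO library, the only tested collagen of which that was true (1 of 32, beside 1.09% of all genes), and 0 collagens lay wholly lower in DKO, beside 0.706%. Its log2 fold change was 2.54 (SE 0.98, adjusted p = 0.547) for DKO against CDK18KO and -3.56 (SE 0.97, adjusted p = 0.1496) for CDK18KO against WT. Col6a1, which lies beside Col6a2 on chromosome 10 in the same orientation, averaged 1.19 ± 1.497 CPM in CDK18KO, 3.33 ± 2.19 CPM in DKO and 5.64 ± 4.65 CPM in WT (SD). Its log2 fold changes were -2.12 (SE 0.90, adjusted p = 0.252) for CDK18KO against WT and -0.77 (SE 0.92, adjusted p = 0.676) for DKO against WT, with -0.13 in the second without WT 4, the library highest for both Col6a1 and Col6a2. The later type VI chains Col6a4, Col6a5 and Col6a6, neighbours on chromosome 9, had 4, 37 and 34 counts and were not tested. Col6a5 had 1 count in CDK18KO, 25 in DKO and 11 in WT libraries, and Col6a6 had 2, 20 and 12 in the same order, with DKO 1 holding 14 and 15 of them.

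Col6a3 and Col11a1 separated both knockout groups from WT, and Col18a1 had the highest fold change of the collagens in both comparisons with WT. These chains were picked by those values, and none passed the adjusted edgeR test in the main fit. The sequences before their starts are shown here. Each is the 150 bases before a start listed by RefSeq for GRCm38.p6, read 5′ to 3′ on the gene's strand, with capitals marking a GC box (GGGCGG) or a CCAAT box (CCAAT) on either strand. They lie at chr1:90843972-90844121 (minus strand), chr3:114030390-114030539 (plus strand) and chr10:77166531-77166680 (minus strand).
Col6a3: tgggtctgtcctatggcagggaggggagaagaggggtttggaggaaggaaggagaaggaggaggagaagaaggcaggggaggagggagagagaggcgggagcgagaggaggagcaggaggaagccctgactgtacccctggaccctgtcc
Col11a1: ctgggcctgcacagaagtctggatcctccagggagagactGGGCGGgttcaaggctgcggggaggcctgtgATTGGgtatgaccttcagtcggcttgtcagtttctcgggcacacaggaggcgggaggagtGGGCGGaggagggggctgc
Col18a1: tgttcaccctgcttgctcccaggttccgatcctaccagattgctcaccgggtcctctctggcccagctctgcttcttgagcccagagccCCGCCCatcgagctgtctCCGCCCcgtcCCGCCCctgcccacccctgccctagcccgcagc
The Col6a3 window held neither motif and no TATA box (TATAAA), the Col11a1 window held 1 CCAAT box and 2 GC boxes, and the Col18a1 window shown held 3 GC boxes. RefSeq lists another start for Col18a1, whose window at chr10:77113706-77113855 (minus strand) is not shown and held none of these motifs. Which start the Col18a1 counts come from was not tested. Over the 250 bases before each start, searched on both strands, GGGCGG was found in 22 of 38 windows of 35 collagen genes and in 32.7% of all 32841 windows. CCAAT was found in 13 of the 38 and 33.9% of all, and TATAAA in 5 of the 38 and 12.4% of all. These letters are a description of the windows and show nothing about which factors bind there.

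Chains that decorate fibrils or anchor membranes followed the same order for Col12a1 and Col7a1 but not for Col14a1. Col12a1, a fibril-associated chain of tissue under load, stood at 5.63, 1.05, 1.54, 3.31 and 0.9305 CPM in CDK18KO 1 to 5, 7.98, 3.91, 9.29 and 9.88 CPM in DKO 1 to 4 and 24.6, 6.23, 7.34, 14.9 and 19.6 CPM in WT 1 to 5. The highest CDK18KO library (5.63 CPM) was below the lowest WT library (6.23 CPM), and the DKO libraries overlapped WT. Log2 fold changes were -2.48 (SE 0.57, adjusted p = 0.138) for CDK18KO against WT, -0.89 (SE 0.58, adjusted p = 0.428) for DKO against WT and 1.59 (SE 0.59, adjusted p = 0.519) for DKO against CDK18KO. Col7a1, the chain of the fibrils that anchor epithelial basement membranes, stood at 0, 0.527, 1.85, 0 and 0 CPM in CDK18KO 1 to 5, 1.71, 0, 2.56 and 0 CPM in DKO 1 to 4 and 11.4, 2.21, 11.7, 6.82 and 6.02 CPM in WT 1 to 5. It was at 0 in 3 CDK18KO and 2 DKO libraries and at 2.21 CPM or more in every WT library. Col7a1 passed the minimum only with the WT counts, so being lower was built into its entry. Against WT, its log2 fold change was -3.83 (SE 1.07, adjusted p = 0.1496) for CDK18KO, or -5.71 without CDK18KO 3, and -2.66 (SE 1.06, adjusted p = 0.202) for DKO.

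Col14a1, a fibril-associated chain, stood at 116, 15.3, 4.63, 0.663 and 3.72 CPM in CDK18KO 1 to 5, 34.8, 22.3, 22.7 and 8.24 CPM in DKO 1 to 4 and 6.99, 39.7, 25.8, 11.5 and 39.1 CPM in WT 1 to 5. CDK18KO 1 was highest of all libraries and CDK18KO 4 lowest, and the log2 fold change for CDK18KO against WT was 0.20 (SE 0.96, adjusted p = 0.939), but -2.08 without CDK18KO 1. For DKO against CDK18KO it was -0.35, or 1.91 without CDK18KO 1, so leaving out CDK18KO 1 turned its direction in both comparisons. Without WT 1 it was -0.067 for CDK18KO against WT. For DKO against WT it was -0.15, between -0.46 and 0.10 with single libraries left out. The type IX chains Col9a1, Col9a2 and Col9a3, partners of cartilage type II fibrils, averaged 11.1, 0.371 and 1.90 CPM in CDK18KO, 7.82, 0.392 and 1.67 CPM in DKO and 39.2, 4.63 and 4.05 CPM in WT. A few libraries carried those levels, with Col9a1 at 117 CPM in WT 2 and 48.2 CPM in CDK18KO 1. Col16a1 ran from 1.58 to 62.3 CPM in CDK18KO, 5.02 to 142 CPM in DKO and 15.2 to 135 CPM in WT.

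The tested transmembrane and short-chain types ranged from 53 counts over all libraries for Col8a2 to 869 for Col8a1. Col13a1, a membrane-spanning chain at cell contacts, averaged 2.38 ± 2.095 CPM in CDK18KO, 6.48 ± 2.897 CPM in DKO and 7.72 ± 5.63 CPM in WT (SD), with a log2 fold change of -1.72 (SE 0.71, adjusted p = 0.239) for CDK18KO against WT and -0.26 for DKO against WT, or 0.20 without WT 2. Col25a1, a membrane chain first described in brain, averaged 3.69 ± 4.42 CPM in CDK18KO, 13.2 ± 12.8 CPM in DKO and 11.5 ± 5.52 CPM in WT, with -1.57 (SE 0.82, adjusted p = 0.347) for CDK18KO against WT and 1.80 (SE 0.85, adjusted p = 0.724) for DKO against CDK18KO. Its value for DKO against WT was 0.23, or -0.67 without DKO 1. Col23a1 spanned 0 to 18.2 CPM without a common order. Among short-chain collagens, Col8a2 had 1 count in CDK18KO, 5 in DKO and 47 in WT, a WT to CDK18KO ratio of 35.4 (exact 95% counting interval 6.05 to 1429). Col10a1, the collagen of growth-plate cartilage, had 2 counts in CDK18KO, 14 in DKO and 58 in WT, a WT to CDK18KO ratio of 21.9 (5.78 to 185). These intervals cover counting error only, and both genes also had a WT library at 0. Col10a1 lies opposite Nt5dc1, Col9a3 opposite Tcfl5 and Col18a1 opposite Slc19a1, and the sources used here do not give whether counting used strand. Col8a1, a vessel-wall chain, ran from 3.40 to 49.4 CPM in CDK18KO, 10.6 to 61.2 CPM in DKO and 12.4 to 25.4 CPM in WT. Col26a1 averaged 5.61 ± 7.96 CPM in CDK18KO, 7.07 ± 9.15 CPM in DKO and 52.4 ± 60.9 CPM in WT, with WT 4 at 159.9 CPM, and its log2 fold changes of -3.18 and -2.84 against WT were -2.11 and -1.77 without WT 4.

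The multiplexins are basement membrane collagens that release anti-angiogenic fragments, and both had log2 fold changes above 0 in each comparison with WT, where neither passed the adjusted edgeR test. Col18a1 (10:77052178-77166548, minus strand), the source of endostatin, stood at 35.98, 163, 32.4, 121 and 188 CPM in CDK18KO 1 to 5, 207, 303, 39.4 and 107 CPM in DKO 1 to 4 and 33.1, 96.5, 14.1, 14.3 and 30.9 CPM in WT 1 to 5. In CDK18KO, libraries 2, 4 and 5 were above every WT library, and in DKO libraries 1, 2 and 4 were, while CDK18KO 1 and 3 and DKO 3 lay among the WT libraries. WT 2 stood apart within WT. The log2 fold change was 1.51 (SE 0.67, adjusted p = 0.272) for CDK18KO against WT and 2.11 (SE 0.71, adjusted p = 0.155) for DKO against WT, or 2.23 and 2.84 without WT 2, and 0.60 (SE 0.69, adjusted p = 0.986) for DKO against CDK18KO. DESeq2 called it in DKO. Col15a1, the other multiplexin, averaged 5.87 ± 4.43 CPM in CDK18KO, 6.82 ± 3.25 CPM in DKO and 3.86 ± 2.23 CPM in WT, with log2 fold changes of 0.59 (SE 0.60, adjusted p = 0.655) for CDK18KO against WT, or 0.10 without CDK18KO 2, and 0.81 (SE 0.63, adjusted p = 0.511) for DKO against WT.

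With most chains lower and Col18a1 higher, the make-up of the collagen counts differed. Col18a1 held 2.84%, 27.5%, 9.04%, 48.9% and 54.4% of all collagen counts in CDK18KO 1 to 5, 12.6%, 34.3%, 4.08% and 15.2% in DKO 1 to 4, and 2.52%, 8.91%, 1.57%, 1.16% and 1.85% in WT 1 to 5. The means were 28.5 ± 23.05% in CDK18KO (SD, n = 5), 16.6 ± 12.8% in DKO (n = 4) and 3.20 ± 3.23% in WT (n = 5). The exact 95% interval of CDK18KO 5 was 50.8 to 58.1% and that of WT 2, the highest WT library, 8.29 to 9.57%. Col1a1, Col1a2 and Col3a1 together held 31.4 ± 14.8% in CDK18KO, 49.5 ± 9.21% in DKO and 47.0 ± 7.04% in WT, so the scar-type chains were a smaller part of the collagen counts in CDK18KO than in DKO or WT means, with overlap between the groups. These shares compare libraries, not the amounts of protein.

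**Figure D4:**
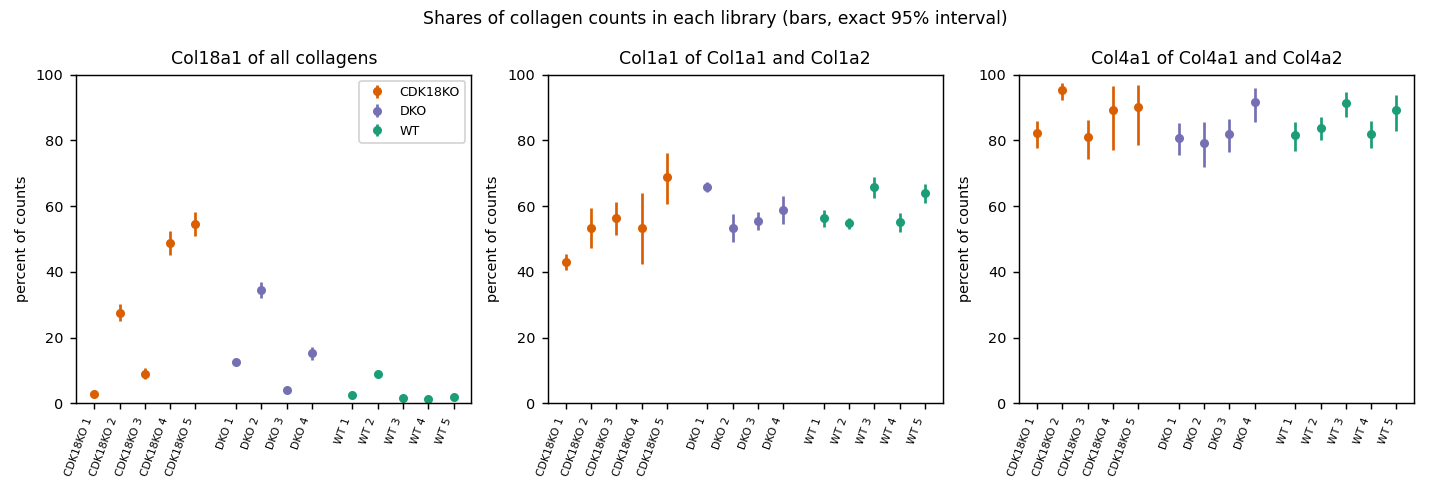
Share in percent (y axis) of Col18a1 among all collagen counts, of Col1a1 among the type I pair and of Col4a1 among the Col4a1 and Col4a2 pair in each library, with exact 95% counting intervals as bars. The Col18a1 share runs from 2.84 to 54.4% in CDK18KO, 4.08 to 34.3% in DKO and 1.16 to 8.91% in WT, while CDK18KO 1 has the lowest Col1a1 share, at 43.01%, and CDK18KO 2 the highest Col4a1 share, at 95.3%.

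Hepatocytes are a source of Col18a1 in liver, and the hepatocyte list moved with the groups. Its 14 genes summed to 1720.0, 12314, 917, 6300.4 and 4512 CPM in CDK18KO 1 to 5, 10281, 20752, 1323 and 5409 CPM in DKO 1 to 4 and 106, 3239, 184, 354 and 1472 CPM in WT 1 to 5. Of the 14, 12 were higher and 2 lower in CDK18KO than in WT by the sign of the fold change, and all 14 were higher in DKO. Of all genes tested, 51.8% and 52.2% had a fold change below 0 in these comparisons. At an unadjusted p under 0.05, 9 were higher in CDK18KO and 12 in DKO, beside 10.8% and 13.1% of all genes, and edgeR called none. The part of these levels in the Col18a1 values was not tested.

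Summed fibrillar collagen was 745, 197, 178, 50.7 and 100.5 CPM in CDK18KO 1 to 5, 1131, 391, 513 and 416 CPM in DKO 1 to 4 and 801, 559.8, 438, 729 and 1212 CPM in WT 1 to 5. The 17 stellate cell and fibroblast markers, a list without collagens that shares Dcn with the fibril-associated list and Acta2, Tagln and Des with the smooth muscle list, summed to 528, 121, 115, 25.5 and 43.7 CPM in CDK18KO 1 to 5, 361, 230.5, 239 and 272 CPM in DKO 1 to 4 and 534, 449.6, 304, 416 and 440.3 CPM in WT 1 to 5. In CDK18KO, library 1 was high and libraries 2 to 5 were below every WT library for both sums. In DKO the fibrillar sum overlapped WT in all but DKO 2 and DKO 4, while the marker sum was below the lowest WT library in 3 of 4 libraries. Cygb, cytoglobin of stellate cells, alone stood at 31.2 ± 8.03 CPM in DKO and 219 ± 103 CPM in WT, a larger difference than that of the whole sum, which averaged 275 CPM in DKO and 429 CPM in WT. In CDK18KO Cygb averaged 56.8 ± 85.3 CPM (SD) and the whole sum 167 CPM, so this gene held a large part of that difference from WT too. Of the 16 markers tested, 13 had a log2 fold change below 0 in CDK18KO against WT, with a median of -0.91. At an unadjusted p under 0.05, 5 were lower and 0 higher, beside 6.13% and 10.8% of all genes. In DKO against WT 8 were below 0 and 8 above, with a median of -0.07. At that p 1 was lower, which is near the share of 5.26% of all genes, and 0 were higher, beside 13.1%. edgeR called 0 in either. Pdgfrb, the receptor that defines stellate cells and pericytes, had 3.52 ± 2.97 CPM in CDK18KO, 8.37 ± 1.34 CPM in DKO and 22.5 ± 11.1 CPM in WT (SD), and Pdgfra, its fibroblast relative, had 4.903 ± 5.36 CPM, 10.4 ± 6.71 CPM and 27.1 ± 16.4 CPM in the same order. Other markers of the list differed less between DKO and WT or went the other way. Thy1 had 1.22 ± 0.380, 6.12 ± 1.92 and 8.36 ± 4.35 CPM, Acta2 8.39 ± 12.2, 8.71 ± 5.25 and 10.2 ± 3.71 CPM, and Des 0.959 ± 0.718, 1.91 ± 2.18 and 0.509 ± 0.727 CPM in that order. Lrat, the retinol-storing enzyme of quiescent stellate cells, was highest in CDK18KO 1 at 19.4 CPM and at 0 in CDK18KO 4, CDK18KO 5, WT 1 and WT 3. The part of these cells in the collagen values was not tested.

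**Figure D5:**
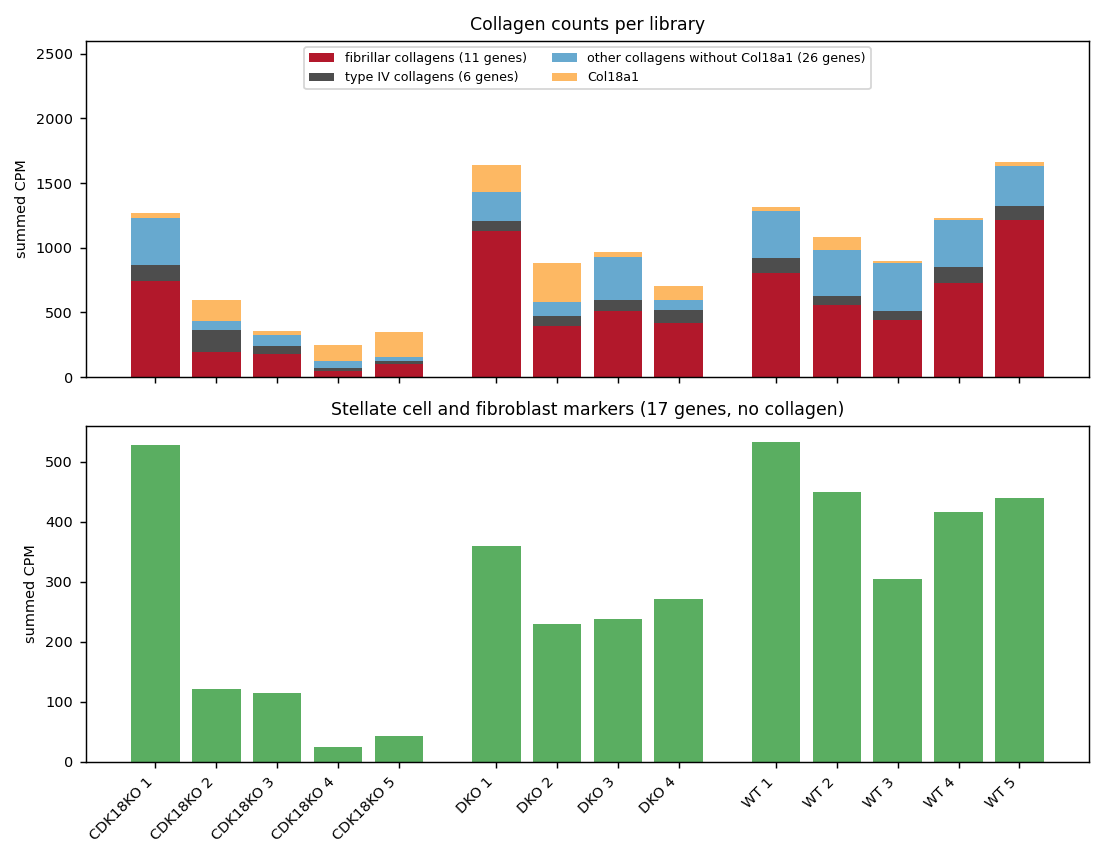
Upper panel, summed CPM of fibrillar, type IV and other collagens and of Col18a1 in each library as stacked bars. Lower panel, summed CPM of 17 stellate cell and fibroblast markers that include no collagen. CDK18KO 4 and 5 have the shortest bars in both panels, and CDK18KO 1 stands at 1266 CPM of collagen and 528 CPM of markers.

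The summed levels of the other cell-type lists had higher means in DKO than in CDK18KO for all 6, while CDK18KO had no common order against WT. Endothelial markers summed to 55.3 to 249.98 CPM in CDK18KO, 88.7 to 332 CPM in DKO and 108 to 204 CPM in WT. Cholangiocyte and progenitor markers summed to 27.8 to 343 CPM in CDK18KO, 151 to 778 CPM in DKO and 171 to 490 CPM in WT. Of 9 tested, 5 were lower in CDK18KO than in WT at an unadjusted p under 0.05, beside 6.13% of all genes. In DKO against CDK18KO 5 of 9 were higher at that p, beside 5.07%. All 9 had a log2 fold change above 0 for DKO against CDK18KO, with a median of 2.12. Krt19, a defining gene of bile-duct cells, had 0.284 ± 0.2798 CPM in CDK18KO, 18.8 ± 16.9 CPM in DKO and 13.001 ± 10.9 CPM in WT. Macrophage and Kupffer cell markers summed to 82.5 to 223 CPM in CDK18KO, 103 to 900 CPM in DKO and 72.1 to 210 CPM in WT. DKO 1 and 2 stood at 900 and 402 CPM, and DKO 3 and 4 at 105 and 103 CPM, within the WT range. All 11 markers had log2 fold changes above 0 for DKO against WT (median 1.52), where 52.2% of all genes lay below 0. At an unadjusted p under 0.05, 5 were higher, beside 13.1% of all genes. For DKO against CDK18KO all 11 were above 0 (median 1.14), beside 49.1%, and 3 were higher at that p, beside 5.07%. For CDK18KO against WT 6 of 11 were above 0 (median 0.01), and 0 were higher at that p, beside 10.8%. Smooth muscle markers averaged 96.7 CPM in CDK18KO, 142 CPM in DKO and 63.7 CPM in WT. Most of these sums was Mylk alone, at 78.7 ± 65.2, 123 ± 89.4 and 43.5 ± 15.6 CPM (SD) in the same order. Of 4 smooth muscle markers tested, 3 had a log2 fold change below 0 and 1 above for DKO against WT (median -0.13), where 52.2% of all genes lay below 0. Schwann cell markers averaged 54.1 CPM in CDK18KO, 65.4 CPM in DKO and 65.4 CPM in WT, with Sox10 at 0 in all libraries but WT 2. Cartilage markers averaged 70.6 CPM in CDK18KO, 88.6 CPM in DKO and 34.9 CPM in WT. Nearly all of these sums was Sox5 and Sox6, the 2 of 8 listed markers that were tested. Sox5 averaged 36.03, 31.3 and 25.3 CPM and Sox6 32.95, 54.7 and 8.54 CPM in the same order. Acan was at 0 in all libraries but CDK18KO 3. The cartilage sums therefore describe Sox5 and Sox6 and not the list as a whole. The part of any of these in the collagen values was not tested.

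For the lists of other collagen pathway genes that follow, the shares of all genes at an unadjusted p under 0.05 are 6.13% lower and 10.8% higher in CDK18KO against WT, 5.26% and 13.1% in DKO against WT, and 1.9% and 5.07% in DKO against CDK18KO. Of 20 modifying and folding genes tested, 1 was lower and 0 higher in CDK18KO against WT at an unadjusted p under 0.05, with a median log2 fold change of -0.13. In DKO against WT 1 was lower and 2 higher, with a median of -0.37, and both sets of counts are near or below the shares of all genes. P3h3, a prolyl 3-hydroxylase family member, was the lower gene in both, at 3.41 ± 3.18 CPM in CDK18KO, 4.01 ± 0.776 CPM in DKO and 13.7 ± 4.96 CPM in WT (SD), with no overlap between either knockout group and WT. Its log2 fold changes were -1.96 and -1.76 (adjusted p = 0.153 and 0.169). The higher genes in DKO were Mia3 and Sec23a, which export procollagen from the endoplasmic reticulum, at 1.22 and 1.08.

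Of 11 processing and crosslinking genes, 2 were lower and 1 higher in CDK18KO against WT at that p, 1 was lower in DKO against WT, and 3 were higher in DKO against CDK18KO, beside the shares of all genes given above. The counts of 1 lie near those shares. Lox, the oxidase that crosslinks fibrils, stood at 5.99 ± 7.43 CPM in CDK18KO and 36.8 ± 30.2 CPM in WT, a log2 fold change of -2.58. Adamts2, which removes the procollagen N-propeptide, was lower by the same measure (-1.60), and Tgm2, a transglutaminase, was the higher one (1.96). Pxdn, the peroxidase that crosslinks type IV collagen, was the lower gene in DKO, at 3.57 ± 3.52 CPM in DKO and 14.02 ± 4.14 CPM in WT without overlap.

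Of 11 genes that degrade collagen or inhibit its degradation, 6 were lower and 0 higher in CDK18KO against WT at that p, with a median of -1.23, beside 6.13% and 10.8% of all genes. In DKO against WT 4 were lower and 1 higher, with a median of -0.23, beside 5.26% and 13.1%. Mmp9, a gelatinase, stood at 0.624 ± 0.964 CPM in CDK18KO and 17.1 ± 6.37 CPM in WT, and Mrc2, the receptor that takes up collagen fragments, at 0.311 ± 0.441 CPM in CDK18KO, 1.17 ± 0.801 CPM in DKO and 5.34 ± 2.51 CPM in WT, each without overlap with WT. Timp3, a metalloproteinase inhibitor, was 1 of 3 genes higher in DKO against CDK18KO, at 159 ± 45.5 CPM in DKO and 43.3 ± 30.98 CPM in CDK18KO without overlap. Of 9 collagen receptors, 1 was lower in each comparison with WT, Ddr2, a receptor kinase for fibrillar collagen, at 10.1 ± 15.5 CPM in CDK18KO, 5.88 ± 2.74 CPM in DKO and 44.4 ± 18.3 CPM in WT. Lair1, an inhibitory collagen receptor of leukocytes, was the 1 receptor higher in DKO against WT (1.11).

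Of 17 fibril-associated matrix genes, 10 were lower and 0 higher in CDK18KO against WT at an unadjusted p under 0.05, with a median of -2.01, beside 6.13% and 10.8% of all genes. In DKO against WT 2 were lower and 1 higher, with a median of -1.05, beside 5.26% and 13.1%, and the list's summed level averaged 1465 CPM in DKO and 1191 CPM in WT. In DKO against CDK18KO 5 were higher, beside 5.07%. Bgn, the proteoglycan biglycan, stood at 14.5 ± 9.600 CPM in CDK18KO and 63.3 ± 26.6 CPM in WT, and Aspn, asporin, at 0.494 ± 0.388 CPM in CDK18KO and 13.1 ± 10.9 CPM in WT, both without overlap. Fn1, fibronectin, which hepatocytes also make, was the higher gene in DKO, at 625 ± 254 CPM in DKO and 197 ± 67.1 CPM in WT without overlap. Of 15 basement membrane partners of type IV collagen, 7 were lower in CDK18KO against WT and 2 in DKO against WT, and 0 were higher, among them the laminin chains Lamc3 (-4.81 and -3.07) and Lama4 (-1.76 and -1.53). Of 16 TGF-β genes, 2 were lower in CDK18KO against WT at that p, beside 6.13% of all genes, 0 were lower or higher in DKO against WT, and 3 were higher in DKO against CDK18KO, beside 5.07%. Ccn2, a matrix gene that TGF-β induces, stood at 11.3 ± 9.44 CPM in CDK18KO and 58.2 ± 28.2 CPM in WT without overlap. edgeR called no gene of these lists in any comparison.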

How the data were processed

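Liver tumour RNA was sequenced from its 3′ ends in 14 libraries: 5 CDK18KO, 4 DKO and 5 WT. Per the labels' protocols, 300.0 ng of total RNA (mean integrity number 8.3, range 7.5 to 8.8) gave stranded libraries with a 6-base molecular identifier, read as single reads of 151 bases. The authors deposited raw counts per gene symbol, and per the submitters' processing notes they used STAR 2.7.11a, HTSeq 1.99.2, UMI-tools 1.1.2, DESeq2 1.32.0 and FastQC, with mm10 and GRCh38 named without a role. The sources used here do not say whether reads were collapsed by identifier, and counting intervals cover counting error only. All 14 value columns were used, leaving 0 unused.

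Groups come from the labels. Genes with 50 or more counts over the 14 libraries (16440 genes, 99.5% of counts) entered 1 fit of all libraries with TMM factors and edgeR's two-sided quasi-likelihood F test (edgeR 4.0.16, R 4.3.3), with Benjamini-Hochberg adjustment over all of them and a call at an adjusted p under 0.05. The filter does not look at groups, but 7 of the 32 tested collagens (Col2a1, Col4a5, Col7a1, Col8a2, Col9a2, Col10a1 and Col11a2) fall below it without the libraries of some 1 group. The SE is the size of the log2 fold change divided by the square root of F, and CPM uses TMM-scaled totals. The common biological coefficient of variation was 0.624. Medians and counts over the collagens are descriptions beside the same over all genes, with no test of the list. The pipeline was tested on simulated data. The members and lists were chosen with earlier results of these data known. Named collagens are types I, III, V (Col5a1 and Col5a2), VI, XIV, XV and XVIII, Col4a1 and Col4a2, and the 10 smallest p in each comparison, 25 in all, with the other chains given by range or count, and up to 4 genes per list. Positions are from GENCODE M21 (GRCm38), which lists all 44 collagens, and promoters from RefSeq.

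Alternatives were each library left out in turn, a block for the replicate number, edgeR's filter by group, no filter, DESeq2 1.42.0, upper-quartile or RLE factors, a fit of the compared groups only and log2 Y-linked CPM as a covariate. Leaving out the 3 libraries above 100.0 Y-linked CPM, and requiring the minimum without any 1 group, were chosen after seeing the data.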

Additional observations from a re-analysis of the deposited data

Results flagged for a closer look

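Within groups of 4 or 5 libraries, 1 library stood far from the others for 18 of 74 sets of values over 25 collagens. A chance rate of about 1 in 20 cannot be applied to these sets, so their number is a description only. The sets share libraries, and some chains had counts in only 1 library of a group, which sets that library apart by construction. CDK18KO 1 was the high library for the fibril and fibril-associated chains Col1a2 (311 CPM, next 69.6), Col3a1 (126, next 30.6), Col5a2 (28.2, next 6.86) and Col14a1 (116, next 15.3), and for Col26a1 (19.4, next 5.25). The same library had the highest stellate cell and fibroblast marker sum of its group, 528 CPM against 25.5 to 121 CPM in CDK18KO 2 to 5, and the highest Y-linked level of its group, and their part in these values was not tested.

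CDK18KO 3 was the high library for chains near the limit of counting, with 0.309 CPM of Col2a1 and 0.309 CPM of Col8a2, 0.618 CPM of Col10a1, 1.85 CPM of Col7a1 (next 0.527) and 1.85 CPM of Col9a2, against 0 in the other CDK18KO libraries except for Col7a1. In DKO, Col1a1 stood apart in DKO 1 (613 CPM, next 227), Col10a1 in DKO 3 (3.84, next 0.549), and Col4a5 (23.1, next 3.84) and Col6a1 (6.59, next 2.56) in DKO 4. Col8a2 was low in DKO 2, at 0 against 0.549 CPM or more in the other DKO libraries. In WT, Col18a1 stood apart in WT 2 (96.5 CPM, next 33.1), Col26a1 in WT 4 (159.9, next 34.6) and Col9a2 in WT 1 (16.9, next 2.79).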

How the results depend on the processing

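Over 75 results and 24 alternatives, 1316 values kept their direction and their side of the threshold, 15 newly passed it and 62 changed sign. edgeR called 1 gene for CDK18KO against WT, 1 for DKO against WT and 0 for DKO against CDK18KO, and leaving out single libraries gave 0 to 25, 0 to 1 and 0 to 1. DESeq2 called 927, 1081 and 121 genes, and no filter 173, 252 and 42. For both comparisons with WT, 0 genes were called with only the pair of groups, with the Y-linked covariate or without the 3 libraries of high Y-linked expression, and RLE factors gave 0 for CDK18KO against WT. Collagens called for CDK18KO against WT numbered 7 by DESeq2, 1 with no filter (Col6a3), and 0 to 1 with single libraries left out, and DESeq2 called 2 for DKO against WT. The collagen median ran from -2.38 to -1.29 (CDK18KO against WT), -0.85 to -0.44 (DKO against WT) and 0.59 to 1.80 (DKO against CDK18KO) with single libraries left out, and the last was 1.73 without the 3 libraries. Upper-quartile factors moved the median of all genes to -0.14 and -0.15 against WT. With genes that reach the minimum without any 1 group, the collagen medians were -1.38, -0.54 and 0.57. The main fit did not pair libraries by replicate number. Correlations of the 13 same-numbered pairs ran from -0.21 to 0.62, 6 of them over 0.1, and 3 of 14 libraries correlated best with their own number. Such correlations over all genes can follow other differences between libraries, so they do not decide whether the numbers pair them. With the number as a block, 291 and 432 genes were called against WT, and 3 collagens (Col6a3, Col11a1 and Col12a1) and 1 (Col18a1). The sign of log2 fold changes, none of them called, changed as follows, and the cause was not tested. Under the block, Col14a1 was -1.39 for CDK18KO against WT, Col14a1, Col4a1 and Col9a2 were 0.82, 0.12 and -0.0861 for DKO against CDK18KO, and Col1a1 and Col25a1 were -0.063 and -0.16 for DKO against WT. Without the 3 libraries of high Y-linked expression, Col14a1 was -1.77 for CDK18KO against WT, 1.90 for DKO against CDK18KO and 0.13 for DKO against WT, and Col4a1 and Col9a2 were 0.10 and -0.19 for DKO against CDK18KO. With the Y-linked covariate, Col14a1 was -0.20, 1.44 and 1.24 in the same order, Col4a1 and Col9a2 were 0.11 and -0.18 for DKO against CDK18KO, and for DKO against WT Col1a2 was 1.03, Col3a1 0.44, Col4a1 0.081, Col4a2 0.31, Col5a1 0.22 and Col5a2 0.24. For DKO against WT, Col1a1 was -0.0275 with upper-quartile factors, and Col1a2 was 0.058 with no filter and 0.016 with only the pair of groups. With single libraries left out, the log2 fold change for CDK18KO against WT ran from -2.08 to 0.51 for Col14a1, -0.78 to 0.26 for Col27a1 and -0.85 to 0.011 for Col4a1. For DKO against CDK18KO it ran from -0.17 to 1.15 for Col11a1, -0.66 to 1.91 for Col14a1, -0.024 to 0.67 for Col15a1, -1.09 to 1.73 for Col26a1, -1.67 to 0.00 for Col2a1, -0.33 to 0.50 for Col4a1 and -1.39 to 3.53 for Col9a2. For DKO against WT it ran from -0.52 to 0.20 for Col13a1, -0.46 to 0.10 for Col14a1, -0.57 to 0.37 for Col1a1, -0.36 to 0.17 for Col1a2, -0.67 to 0.56 for Col25a1 and -0.31 to 0.084 for Col4a2.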

Other observations

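The 12 collagens below the minimum had 4 to 45 counts over all 14 libraries. Besides the chains given above, these were Col17a1, a hemidesmosome chain of epithelia (3 counts in CDK18KO, 5 in DKO and 1 in WT), the fibril-associated chains Col19a1 (10, 3 and 12), Col20a1 (3, 7 and 3) and Col22a1 (11, 13 and 13), and Col28a1 (1, 4 and 8). Col24a1, a fibrillar chain, had 4 counts in CDK18KO, 21 in DKO and 18 in WT, with 19 of the DKO counts in DKO 1, the library that was also highest for Col1a1, Col1a2, Col27a1 and Col25a1.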
